A study of Mus musculus with 8 samples.

Results

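The regions described here are 5-kb windows of the mouse genome (build mm9, chromosomes 1 to 19) in which the Abcam antibody to H3K9me3, but not an Upstate-type antibody, gave a high ChIP-seq signal before loss of Setdb1. They were chosen on measured values. The T=0 tags of both Abcam lots were pooled, and a window was kept if the pool held at least 2 times its median (84 tags or more, for a median of 42) while the Upstate-type antibody at T=0 held less than 1.5 times its own median (under 15 tags, for a median of 10). Medians were taken over the 474385 windows that had a tag in any library. The rule kept 3227 windows (0.680%), or 16.1 Mb. They made up 31.8% of the 10148 windows in which the Abcam pool was high, and the other 6921 (68.2%) were high with the Upstate-type antibody as well and are called shared windows. In a further 49721 windows the Upstate-type antibody reached 2 times its median while the Abcam pool stayed below 1.5 times.

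The cells were JM8 embryonic stem (ES) cells of the C57BL/6N strain, in clonal lines in which one Setdb1 allele was inactivated (tm2) and the other was conditional. The study's methods write the genotype as tm1c/tm2 before and tm1d/tm2 after Cre, and the sample labels write it as tm1a/tm2 and tm1c/tm2. A CreERT2 at Rosa26 was activated with 0.8 μM 4′-hydroxytamoxifen (4′OHT) for 48 h, after which the cells were grown without it. T=0 cells had the same alleles and Cre and no 4′OHT. The Upstate-type antibody, a gift described as similar to Upstate/Millipore 07-442 lot 4861, was used at T=0, T=2d, T=4d and T=6d (days after the start of treatment), and lots 58206 and 638466 of the Abcam antibody Ab8898 were used at T=0 and T=6d. There was 1 library per antibody and time point, 8 in all, so no value has a replicate error, and a time point, a culture and a library cannot be told apart. Each test below compares 2 libraries and not the conditions. Control tm1c/+ cells and input DNA were not analysed here. Since tags in these files carry no RNA, loss of Setdb1 itself was not checked here.

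H3K9me3, trimethylation of lysine 9 of histone H3, marks heterochromatin and silenced repeats. Setdb1 is one of the enzymes that write it. It is brought to endogenous retroviruses and other sites by KAP1 and KRAB zinc finger proteins, and in ES cells many retroviral copies depend on it for silencing, while pericentric heterochromatin depends mainly on Suv39h enzymes. ChIP measures what an antibody pulls down. A polyclonal antibody is a mixture that changes between lots, and sera raised against the same mark can differ in how they bind neighbouring modifications and sequence context.

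Each Upstate library held 6887819 tags, each of lot 58206 held 8503927 and each of lot 638466 held 12194174. All intervals were 300 bp long and no start position was repeated. A 5-kb window held a median of 9 or 10 tags in the Upstate libraries, 16 in those of lot 58206 and 25 in those of lot 638466, so a single window is imprecise with the Upstate-type antibody. Levels below are tags per window or multiples of the library's own median. Intervals are 95% and cover counting error only. Window sequences and neighbouring genes are not given, since the reference at hand was of another build.

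Both lots did not contribute equally to the choice. At T=0 the members held a median of 49 tags with lot 58206, 3.06 times its median (interquartile range 42 to 58, range 21 to 132). With lot 638466 they held 44 tags, 1.76 times its median (38 to 51, range 17 to 75). Whatever the level of the other lot, lot 58206 reached 2 times its median in 3091 members (95.8%), and lot 638466 in 967 (29.97%). Both lots reached that level in 831 members, lot 58206 alone in 2260 and lot 638466 alone in 136. A window below that level with both lots cannot hold the 84 pooled tags that the rule asks for. The Upstate-type antibody gave a median of 10 tags at T=0, which is the library's median, with a highest value of 14. These T=0 values were used by the rule and are a description.

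In the T=6d libraries, which took no part in the choice, the lots differed, as they already had at T=0. Lot 58206 gave a median of 67 tags in the members, 4.19 times its median (interquartile range 47 to 91, range 7 to 264), and 2792 members (86.5%) were at least 2 times the median, against 4.63% of all windows. Lot 638466 gave 30 tags, 1.20 times its median (25 to 36, range 11 to 70), and 57 members (1.77%) reached 2 times, against 0.429% of all windows. At the lower level of 1.5 times, lot 638466 reached 609 members (18.9%), against 8.10% of all windows, and lot 58206 reached 2969 (92.0%), against 14.7%. The windows were thus still high at T=6d with one lot of the Abcam antibody and close to the genome-wide level with the other.

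**Figure D1:**
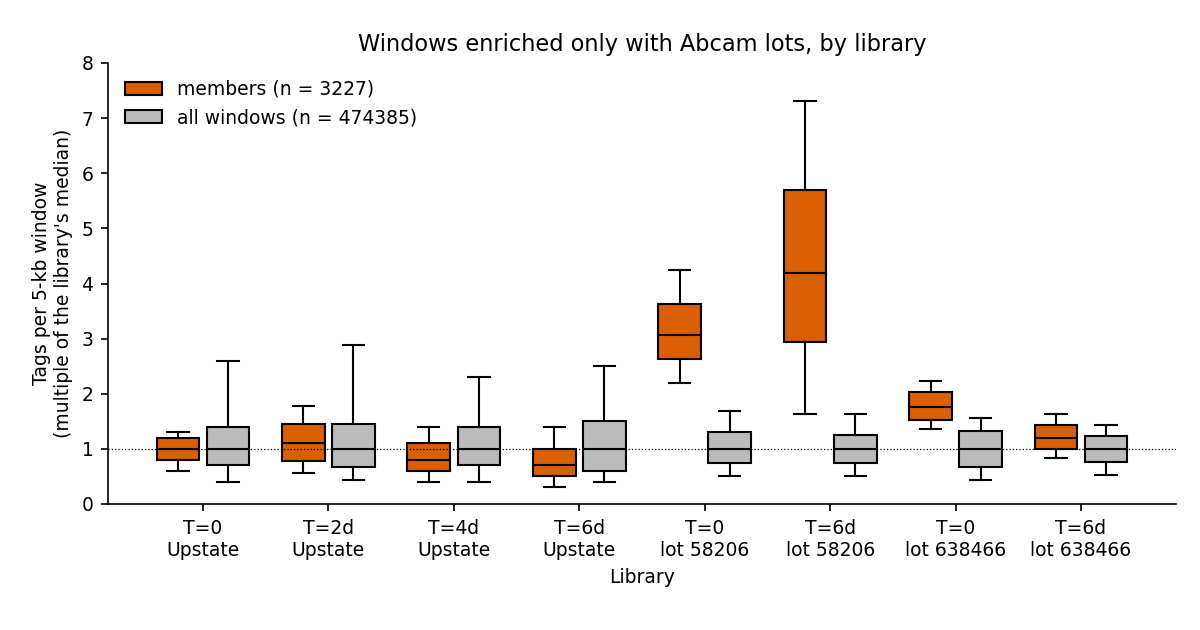
Tags per 5-kb window as a multiple of the library's median, for the 3227 windows enriched only with the Abcam lots (orange) and all 474385 windows (grey) in each of the 8 libraries. Boxes span the quartiles with the median as a line, and whiskers run from the 10th to the 90th percentile. The members sit at a median of 4.19 with lot 58206 at T=6d, 1.20 with lot 638466 and 0.7 with the Upstate-type antibody, and their T=0 boxes are set by the rule.

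The lots at T=6d were compared window by window with Fisher's exact test (two-sided, on the tags that fell within a window and those elsewhere), and a window was called if P was below 0.01 and the ratio, scaled to deposited tags, was over 1.5-fold. Lot 58206 was higher than lot 638466 in 2527 of 3227 members (78.3%, 76.8 to 79.7), where 3.51% of all windows tested were called higher. It was lower in 4 members (0.124%), where 1.34% of all windows were called lower. The median log2 ratio between lots was 1.66 in the members, a ratio of 3.16, and -0.10 over all windows. Of the shared windows, 42.2% were called higher with lot 58206. At T=0 lot 58206 reached 2 times its median in 95.8% of members and lot 638466 in 29.97%. The choice of windows thus already favoured a higher lot 58206. In windows chosen with lot 638466 alone in place of the pool, the share called higher with lot 58206 was 21.3%. The share in the members therefore describes the chosen windows and is no independent sign of a difference between the lots.

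The lot that was high at T=0 moved with this difference. Among the 831 members high with both lots at T=0, lot 58206 gave a median of 53 tags (3.31 times) and lot 638466 gave 33 (1.32 times) at T=6d, and 61.01% were called higher with lot 58206. Among the 2260 high with lot 58206 alone, the medians were 74 tags (4.63 times) and 29 tags (1.16 times), and 89.2% were called. Among the 136 high with lot 638466 alone, they were 23 tags (1.44 times) and 37 tags (1.48 times), and 3.68% were called. The last share is close to the 3.51% of all windows. The groups were formed on the T=0 libraries and the values are from T=6d, but each lot's T=0 and T=6d libraries share the antibody.

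**Figure D2:**
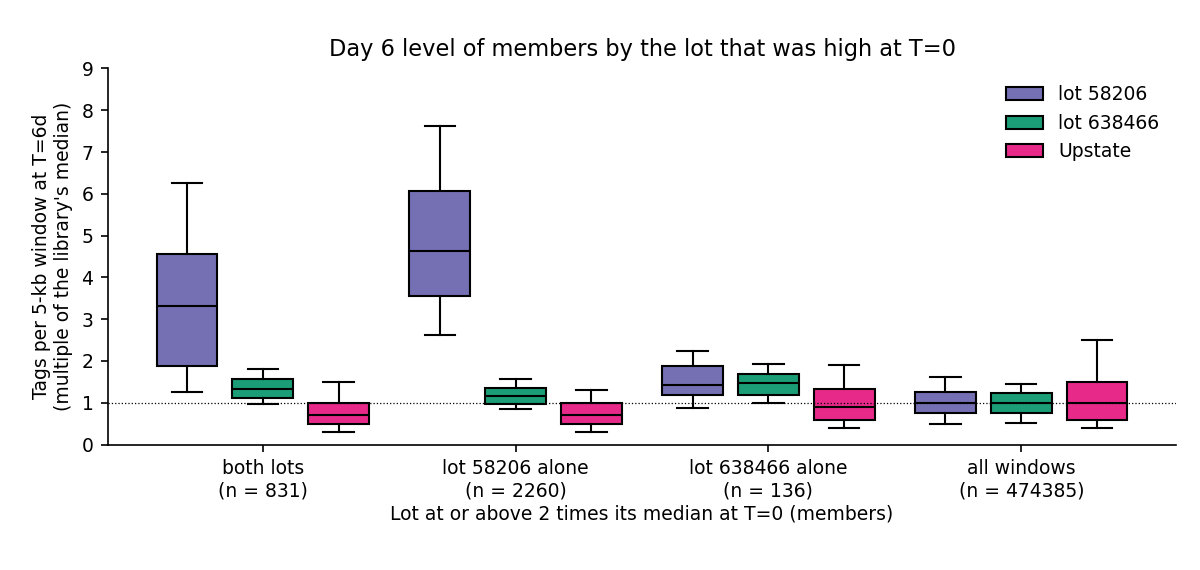
Tags per 5-kb window at T=6d as a multiple of the library's median, for members grouped by the lot that was at least 2 times its median at T=0, and for all windows. Boxes span the quartiles with the median as a line, and whiskers run from the 10th to the 90th percentile. Lot 58206 sits at a median of 4.63 in the 2260 members that were high with it alone, and at 1.44 in the 136 that were high with lot 638466 alone.

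From T=0 to T=6d the members' tags rose in number with lot 58206 and fell in number with lot 638466. With lot 58206 the median log2 ratio was 0.42 and the summed tags were 1.40 times those at T=0. With lot 638466 the median was -0.53 and the sum 0.691 times. Calls by the test are not given for these ratios. On the fold alone, 1128 members (35.0%) were over 1.5-fold higher and 277 (8.58%) over 1.5-fold lower with lot 58206, against 14.4% and 19.4% of all windows. With lot 638466, 0 were over 1.5-fold higher and 1438 (44.6%) lower, against 13.8% and 11.9%. Both T=0 libraries chose the members for high values, so nothing is read from these counts.

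**Figure D3:**
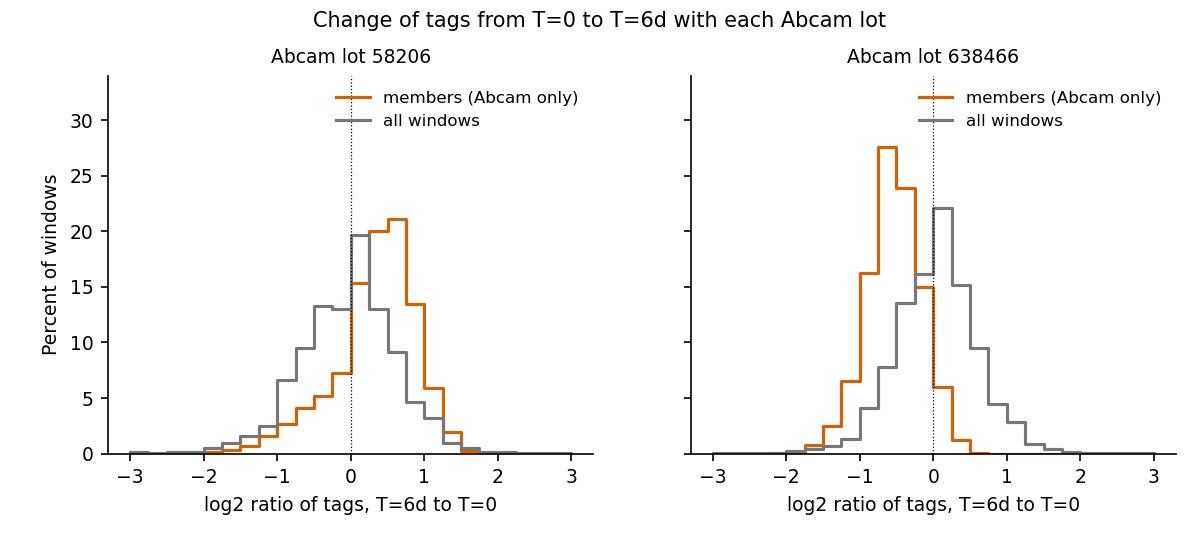
Percent of windows (vertical axis) by log2 ratio of tags at T=6d to T=0 (horizontal axis, bins of 0.25) with lot 58206 and lot 638466, for the members (orange) and all windows (grey). The members' median is 0.42 with lot 58206 and -0.53 with lot 638466, both measured against T=0 libraries that the rule used.

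The same ratios are given by window as a description, from which no link between the lots is read. In the 1128 members over 1.5-fold higher with lot 58206, its median went from 53.5 to 98 tags and that of lot 638466 from 41 to 28, and 532 were over 1.5-fold lower with lot 638466. In the 1822 within 1.5-fold, the medians went from 49 to 58 and from 45 to 31, with 766 lower, and in the 277 over 1.5-fold lower they went from 37 to 20 and from 52 to 34, with 140 lower. Over all 3227 members 1438 (44.6%) were lower with lot 638466, as were 11.9% of all windows.

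A change that does not use the library that chose the windows can be had by crossing the lots. In the 10285 windows that were at least 2 times the median with lot 58206 at T=0 and below the Upstate limit, of which 30.1% are members, lot 638466 gave a median of 37 tags at T=0 and 30 at T=6d. It was called lower at T=6d in 621 (6.04%, 5.59 to 6.52), against 2.08% of all windows, and higher in 15 (0.146%), with a median log2 ratio of -0.29. In the 2510 windows chosen with lot 638466 in the same way, of which 38.5% are members, lot 58206 gave a median of 27 tags at T=0 and 24 at T=6d. It was called higher in 169 (6.73%, 5.78 to 7.78), against 1.89%, and lower in 64 (2.55%), against 2.14%, and the median log2 ratio was 0.00. On the fold alone 15.02% of the latter windows were higher and 16.5% lower, against 16% and 18.8% of all windows. The crossed sets hold more tags than most windows, which makes a call easier, and the spread of lot 638466 over all windows also differed between its libraries (interquartile range 17 to 33 tags at T=0 and 19 to 31 at T=6d, against 12 to 21 and 12 to 20 with lot 58206); the part of either in the result was not tested.

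With the Upstate-type antibody the members lay near the genome-wide level at T=2d and below it at T=4d and T=6d. Their median was 10 tags at T=2d (1.11 times the median, interquartile range 7 to 13, range 0 to 33), 8 at T=4d (0.8 times, 6 to 11, range 0 to 45) and 7 at T=6d (0.7 times, 5 to 10, range 0 to 43). At T=2d 704 members (21.8%) were at least 1.5 times the median, against 22.6% of all windows. At T=4d there were 322 (9.98%, against 22.9%), and at T=6d 299 (9.27%, against 25.5%). At T=6d 70.9% of members were below the library's median, against 47.97% of all windows.

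Few single windows passed the test. From T=2d to T=4d 28 members (0.927% of the 3020 with at least 10 tags in both libraries together) were lower and 2 higher, against 1.23% and 0.934% of all windows. From T=4d to T=6d 25 of 2809 (0.890%) were lower and 13 higher, against 0.903% and 1.04%. From T=2d to T=6d 75 of 2947 (2.54%) were lower and 23 (0.780%) higher, against 2.77% and 2.2%. The shares called lower are near the background and are no result about the members. In the sum, members held 0.788 times (0.775 to 0.801) the T=2d tags at T=6d. Over all windows the sum was 1.002 times, a value that the equalised totals of the libraries hold near 1. The members' median log2 ratio was -0.36, against 0.10 over all windows. Of the members 64.9% were below 0, against 40.8% of all windows. The sum fell to 0.756 times in the 2260 members high with lot 58206 alone and to 0.832 times in those high with both lots. In the 136 high with lot 638466 alone it was 1.07 times (0.991 to 1.15), an interval that holds 1. In the shared windows the same sum was 0.649 times, and 27.3% were called lower.

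The shared windows are set beside the members for comparison, and the difference between the sets was not tested. They went from a median of 3.4 times the Upstate median at T=0 through 3.0 and 1.8 to 1.5 at T=6d, and from 3.0 to 1.88 times with lot 58206, with 48.9% at 2 times or above at T=6d. With lot 638466 they went from 2.04 to 1.20 times, with 5.55% at 2 times or above, and the T=6d median is that of the members. T=0 levels of both sets were used by the rule.

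With lot 58206 at T=6d the tags of the members were concentrated in a short stretch, but not with the other libraries after T=0. Profiles were centred on the densest 500 bp of pooled T=0 Abcam tags in each window, and the central 1 kb was compared with the flanks at 5 to 10 kb. With lot 58206 at T=6d the centre held 28.3 tags per kb and the flanks 4.77, a ratio of 5.94 (5.89 to 5.99), and the peak was 1000 bp wide at its mid height. With lot 638466 at T=6d the centre held 6.07 and the flanks 5.87, a ratio of 1.04 (1.02 to 1.05). The centre was above the flank at T=6d in 89.6% of members with lot 58206 and in 49.1% with lot 638466. In the shared windows these shares were 71.3% and 60.4%. A share over all windows is not given, and the difference between the sets was not tested. The T=0 Abcam profiles were used to place the centre, which gives them a step of that width, and their ratios of 3.86 and 1.65 are a description.

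With the Upstate-type antibody the same centres were a trough. The ratio of centre to flank was 0.492 (0.479 to 0.505) at T=2d, 0.429 (0.416 to 0.442) at T=4d and 0.386 (0.374 to 0.398) at T=6d, when the centre held 1.23 tags per kb and the flanks 3.19. The ratio was 0.472 at T=0, in the library that the rule held below its limit. The intervals count tags of 1 library per time point and give no comparison of the time points as conditions. The T=0 ratio lies between those of T=2d and T=4d. The rule limited the T=0 Upstate tags inside the window and not in the flanks, which favours a trough with this antibody. In 20.1% of members, and in 36.7% of shared windows, the centre was above the flank at T=6d with this antibody. In the shared windows the Upstate ratio went from 1.57 at T=0 through 1.16 and 0.865 to 0.817, and at T=6d lot 58206 had a ratio of 5.21 and lot 638466 one of 1.35.

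**Figure D4:**
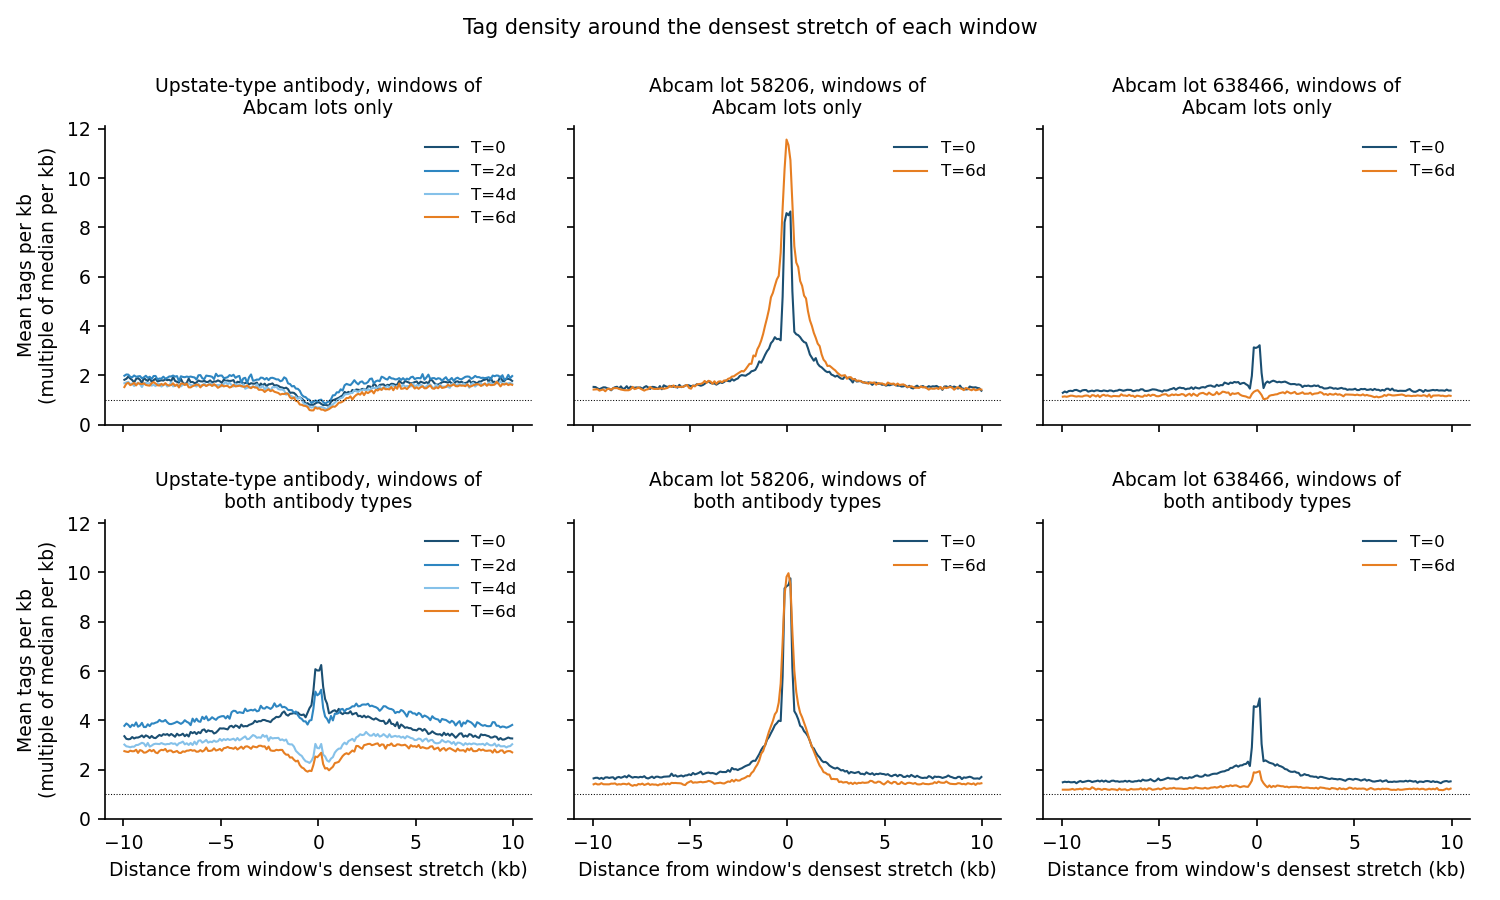
Mean tags per kb, as a multiple of the library's median per kb (vertical axis), against distance in kb from the densest 500 bp of pooled T=0 Abcam tags (horizontal axis), for members (top) and shared windows (bottom) with each antibody and time point. In members, lot 58206 peaks at T=6d with a centre-to-flank ratio of 5.94, lot 638466 is nearly flat at 1.04, and the Upstate-type antibody dips to 0.386.

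Most members, 2768 of 3227, had no member beside them. The members formed 2976 runs of neighbouring windows, of which 2768 (93.0% of the runs) were a single window, 176 held 2, 23 held 3, 7 held 4 and 2 held 5. The longer runs held 352, 69, 28 and 10 members. Members were 0.680% of all windows, and how often windows of that share would adjoin was not computed. Nothing is therefore read from these counts about whether members cluster. The windows next to a member were at 1.31 to 1.38 times the median with lot 58206 at T=6d, 1.2 times with lot 638466 and 0.9 times with the Upstate-type antibody. A window with at least 2 times the Upstate median at T=0 lay next to 1149 members (35.6%, 33.95 to 37.3), against 20.1% of all windows and 73.6% of shared windows. A stretch of 1.5 kb or more with no tag in any library, as unmappable repeats give, was found in 4 members (0.124%) and in 6.50% of all windows, 2.89% of shared windows and 1.52% of those high with the Upstate-type antibody alone. A window with many tags has fewer such stretches by construction, which bears on the comparison with all windows. The difference from the other sets was not tested.

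The longest runs were chr2:105505001-105530000 and chr11:96140001-96165000, of 5 members each, and chr1:186540001-186560000, of 4. The chromosome 2 run held 242 tags at T=0 and 313 at T=6d with lot 58206, and 211 and 180 with lot 638466. Its Upstate tags were 50, 54, 39 and 35 at T=0, T=2d, T=4d and T=6d. In the chromosome 11 run lot 58206 gave 220 and then 318 and lot 638466 gave 249 and then 176, with 43, 54, 41 and 43 Upstate tags. The chromosome 1 run went from 183 to 191 and from 194 to 144, with 40, 42, 24 and 20. In each of the 3 runs lot 58206 was higher and lot 638466 lower at T=6d than at T=0. The T=0 tags chose these windows, so nothing is read from the direction.

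Members were not spread evenly over the chromosomes. Chromosome 8 held 371, or 1.49% of its windows, followed by chromosome 11 with 289 (1.22%), and chromosome 3 had the lowest share, 0.420%. The level of all windows moved with this. The median of the Abcam pool was 50 tags on chromosome 8, 47 on chromosome 11 and 38 on chromosome 3, against 42 over all, and on chromosome 8 it was 11 with the Upstate-type antibody at T=0, 20 and 19 with lot 58206 and 30 and 31 with lot 638466. When each chromosome's own medians set the limits, an alternative added after seeing the data, chromosome 8 held 144 members (0.580%) and the genome 3012. Across the 19 chromosomes the share of members went with the pool's median (r = 0.910) and with the GC content of the chromosome in GRCm38 (r = 0.697, and 0.881 without chromosome 8), but with limits set per chromosome these were -0.606 and -0.487. These are descriptions over chromosomes that share all libraries.

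**Figure D5:**
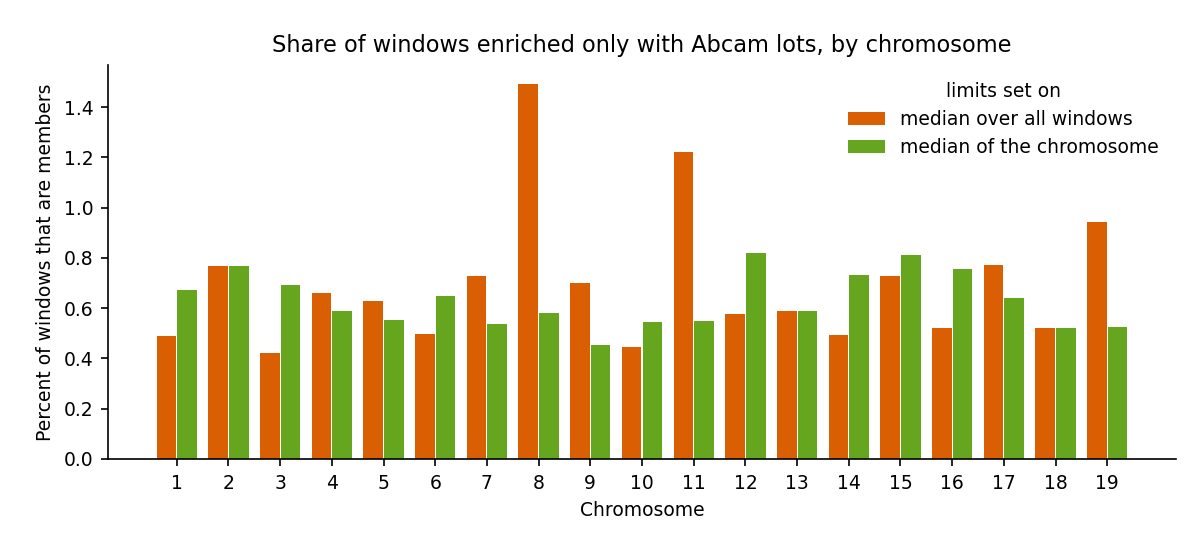
Percent of the 5-kb windows of each chromosome (horizontal axis) that are members, with limits set on the medians over all windows (orange) or on the chromosome's own medians (green). Chromosome 8 goes from 1.49% to 0.580% and chromosome 11 from 1.22% to 0.549%.

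The members with the highest pooled T=0 signal were high with lot 58206 at both times. At chr17:66830001-66835000, the highest at 4.43 times the pool's median, lot 58206 gave 132 tags at T=0 and 153 at T=6d, lot 638466 gave 54 and 36, and the Upstate-type antibody gave 12, 27, 23 and 21. At chr7:17365001-17370000 lot 58206 went from 114 to 172 and lot 638466 from 54 to 27, with 14, 17, 16 and 8 Upstate tags. At chr17:34255001-34260000 lot 58206 went from 119 to 243 and lot 638466 from 46 to 25, with 12, 7, 16 and 18 Upstate tags. In each of the 3 the lot 638466 value at T=6d was below its T=0 value while that of lot 58206 was above. They were picked for high T=0 tags, so nothing is read from these directions. The next were chr8:37675001-37680000, where lot 58206 went from 99 to 81 and lot 638466 from 57 to 27, with 10, 13, 12 and 7 Upstate tags, and chr7:5010001-5015000, with 103 and 157, 52 and 25, and 14, 23, 28 and 9. At chr8:4675001-4680000 they were 99 and 120, 55 and 34, and 12, 19, 21 and 33. The first of these 3 is the only one of the 6 in which lot 58206 was lower at T=6d.

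The 6 members picked as highest with both lots at T=6d were all over 2 times each library's median over all windows. At chr14:23380001-23385000 lot 58206 went from 40 to 52 and lot 638466 from 49 to 68, and the Upstate-type antibody from 13 through 24 and 33 to 43, the highest T=6d Upstate value of any member. At chr10:66995001-67000000 lot 58206 went from 58 to 80 and lot 638466 from 54 to 63, but the Upstate tags were 9, 12, 9 and 4. At chr1:4485001-4490000 the lots went from 49 to 58 and from 47 to 60, with 12, 16, 13 and 11. Of the other 3, all on chromosome 8, chr8:94330001-94335000 went from 46 to 56 and from 50 to 60, with 9, 5, 12 and 7. At chr8:27410001-27415000 the lots went from 51 to 43 and from 73 to 60, with 14, 21, 25 and 27 Upstate tags, and at chr8:27380001-27385000 from 47 to 39 and from 69 to 58, with 14, 19, 21 and 15. The median of all chromosome 8 windows with lot 638466 at T=6d was 31 tags, against 25 over all windows. These 3 members fell short of 2 times that chromosome's median. Across the 6 members the Upstate tags at T=6d ranged from 4 to 43.

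Some members were low with every antibody by T=6d. At chr3:86835001-86840000 lot 58206 went from 35 to 8 tags (log2 ratio -2) and lot 638466 from 60 to 19 (-1.61), with 10, 4, 6 and 5 Upstate tags. At chr4:151295001-151300000 the lots went from 32 to 10 and from 73 to 19, with 12, 9, 8 and 7. At chr4:140375001-140380000 they went from 26 to 7 and from 67 to 24, with 14, 7, 3 and 3, and at chr1:192980001-192985000 from 33 to 9 and from 55 to 21, with 13, 5, 3 and 1. These 4 have the lowest mean log2 ratio over both lots, and in all 4 lot 638466 had the higher multiple of its median at T=0. The other 2 members with the highest T=6d Upstate values were chr8:79770001-79775000, with 12, 26, 31 and 41 Upstate tags, and chr14:52930001-52935000, with 10, 20, 24 and 41. There lot 58206 went from 25 to 28 and from 54 to 54, and lot 638466 from 61 to 33 and from 40 to 29. Their high T=6d Upstate value is what picked them.

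Across members, the log2 tags of lot 58206 at T=0 and T=6d correlated with r = 0.773, and those of lot 638466 with r = 0.360, over ranges that the rule cut (0.698 and 0.775 over all windows). At T=6d the lots correlated with r = -0.314, lot 58206 and the Upstate-type antibody with r = -0.100, and lot 638466 and the Upstate-type antibody with r = 0.184. Over all windows the same 3 were 0.703, 0.403 and 0.509. The members needed a minimum sum of both lots at T=0, so nothing is read from the sign of their values. The Upstate libraries of T=2d and T=6d correlated with r = 0.329 in the members and 0.732 over all windows. The points are windows of the same libraries.

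Many members lay near the limits. There were 245 at exactly 84 pooled tags, and 325 windows missed by 1 tag with the Upstate limit met; 1800 members (55.8%) were within 10 tags of the Abcam limit. Just inside it, chr1:9785001-9790000 held 43 and 41 T=0 tags with lots 58206 and 638466 and 67 and 23 at T=6d, and chr1:9955001-9960000 held 47 and 37 and then 60 and 23. Just outside, chr1:24105001-24110000 held 44 and 39 and then 82 and 33, and chr1:57525001-57530000 held 41 and 42 and then 21 and 31. At the Upstate limit, 320 members had 14 tags and 304 windows with a high Abcam pool had 15. Just inside, chr1:16605001-16610000 had 14 Upstate tags at T=0 and 33 at T=2d, and chr1:36610001-36615000 had 14 and 14. Just outside, chr1:4480001-4485000 had 15 and 16, and chr1:21065001-21070000 had 15 and 13. The loci that the study displayed, at H19 (an imprinted non-coding RNA gene), Olfr901 (an olfactory receptor gene), Cdh3 (which encodes P-cadherin) and a control region, span only 2, 5, 13 and 1 windows and held 0 members, which at a share of 0.680% of all windows says nothing about them.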

How the data were processed

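H3K9me3 ChIP-seq libraries of Setdb1 conditional ES cells were assigned to groups by their labelled time point and antibody, with 1 library in each. The authors kept tags that mapped to a unique position with at most 1 mismatch, equalised the number of tags between the libraries of an antibody, lengthened each tag to 300 bp and deposited only these intervals (build mm9 per the submitters' processing notes), without scores or values per region. The aligner is not given in the sources used here. How tags were picked in the equalisation is not stated, and it sets both libraries of an antibody to equal totals, so ratios are relative to the rest of the genome. Chromosomes X and Y were left out, and the number of columns with per-sample values that were not used was 0.

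Tags were counted in 5-kb windows by interval midpoint in Python (version 3.11.15, with pandas 2.3.3, numpy 2.4.6, scipy 1.17.1 and, for figures, matplotlib 3.10.9). Windows with at least 10 tags in both libraries together were tested over the whole genome (Fisher's exact test, two-sided), at P below 0.01 and over 1.5-fold, as the study required for its own comparison. P was not adjusted in the main call. log2 ratios were taken with 1 tag added to each library, and after scaling to deposited tags. Intervals for shares are exact Clopper-Pearson intervals, and windows are not replicates. Windows are named by rule: the 6 highest with the T=0 pool, the 6 highest with both lots at T=6d, the 4 lowest in the mean ratio of T=6d to T=0, the 3 highest with the Upstate-type antibody at T=6d, the 3 longest runs and those nearest the limits; the limits of the displayed loci were read approximately from the axes of the study's locus plots. The rule for members and all lists were chosen with earlier results of these data known. Alternatives changed the window size and position, the limits, the lot, the scaling, the call rule and the minimum of tags.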

Additional observations from a re-analysis of the deposited data

Results flagged for a closer look

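In the members, the change from T=0 to T=6d had a median of 0.42 on the log2 scale with lot 58206 and -0.53 with lot 638466, values of opposite sign. The difference was not tested, since there was 1 library per lot and time point, and nothing is read from it, since the T=0 libraries of both lots chose the members. The sign with lot 58206 also depended on which lot was high at T=0: its median was 0.49 in the 2260 members high with lot 58206 alone, 0.23 in the 831 high with both and -0.26 in the 136 high with lot 638466 alone. It was 0.00 in the 2510 windows chosen on lot 638466. With lot 638466 the median was below 0 in each of these groups of members (-0.46, -0.68 and -0.67) and -0.29 in the 10285 windows chosen on lot 58206.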

How the results depend on the processing

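Of 152 values recomputed under an alternative, 75 stayed close to the value reported, 70 moved and 7 changed direction. Close means within 1.5 times for the number of members and shares called, within the 95% binomial interval for shares of members at a level, which is far narrower, and within 1 SD over members for median ratios. Most of the moves came from which windows were chosen. The order below is the number of members where it moved, then the share of members at 2 times the day 6 median with lots 58206 and 638466, and at 1.5 times with the Upstate-type antibody on days 2, 4 and 6, where these moved. Windows of 2 kb gave 16266 members, with 70.1%, 6.71%, 31.8%, 17.1% and 15.4%. Windows of 10 kb gave 579, with 93.6% for lot 58206, 6.56% at T=4d and, at T=6d, 7.60%. Windows shifted by 2.5 kb gave 20.4% at T=2d. A pool of 3 times the median gave 85 members, with 100% (85 of 85), 1.18%, 31.8% at T=2d and, at T=6d, 12.9%. An Upstate limit of 1 time the median gave 1501, with 91.1%, 1.13%, 11.5%, 4.86% and 5.00%. Each lot at 2 times gave 861, with 71.9%, 4.41%, 19.9% at T=2d and, at T=6d, 11.6%. Lot 58206 alone gave 10285, with 68.2%, 1.25%, 19.1%, 11.1% and 10.6%. Lot 638466 alone gave 31.1%, 3.90%, 15.7%, 12.6% and 16.5%, and the share called higher with lot 58206 than with lot 638466 at T=6d was then 21.3%. In the other alternatives it ran from 54.04% (2-kb windows) to 98.8% (a pool of 3 times the median), with 59.1% for each lot at 2 times and 59.5% for lot 58206 alone. Medians per chromosome, added after seeing the data, gave 85.2%, 1.20% and 25.1% at T=2d, and leaving out chromosome 8, also added, gave 88.2%, 0.980% and 8.26% at T=6d.

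The share of members called lower with the Upstate-type antibody from T=2d to T=4d was 0.395% with 2-kb windows, 2.76% with 10-kb windows, 0% with a pool of 3 times the median, 0.366% with each lot at 2 times, 2.12% scaled to background windows, 27.9% on the fold alone and 0% with adjusted P (Benjamini-Hochberg, below 0.05). From T=4d to T=6d it was 0.492% with the Upstate limit at 1 time, 1.45% with each lot at 2 times, 29.7% on the fold alone, 0.0356% with adjusted P and 1.46% with at least 20 tags. From T=2d to T=6d it was 5.53% with 10-kb windows, 5.16% scaled to background windows, 40.1% on the fold alone and 0.577% with adjusted P. More members were higher than lower with 2-kb windows from T=4d (0.302% lower, 0.694% higher) and from T=2d to T=6d (1.12% and 1.51%), with a pool of 3 times from T=4d (1.33% and 2.67%), and with lot 638466 alone in all 3 pairs (0.210% and 0.462%, 0.654% and 0.959%, 1.24% and 1.96%). In the crossed sets, the share lower with lot 638466 was 1.48% with 2-kb and 12.8% with 10-kb windows, 9.47% at 3 times the median, 12.1% scaled to background windows, 25.5% on the fold alone and 0.700% with adjusted P. The share higher with lot 58206 was 3.96% with 2-kb windows, 0% at 3 times, 3.55% with adjusted P and 15.02% on the fold alone, where 16.5% were lower. Shares over all windows are not given beside these values, so they show how the counts move and nothing about the members. The cause of these moves was not tested. With 9 or 10 tags in a median window, the Upstate-type libraries limit calls in single windows. No paired analysis was possible because there was 1 library per antibody and time point.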
